A study of Mus musculus with 2 samples.

Results

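Bone morphogenetic protein (BMP), transforming growth factor beta (TGF-beta) and activin pathway genes were compared between Pax6-/- and wild type mouse cerebral cortex. The members were all probe sets of the array with a single gene symbol that begins with Bmp and a digit or r, Tgfb, Gdf and a digit, Inhb, Acvr, Smad and a digit, Chrd, Fst, Ltbp or Grem, or that is Inha or Nog. This gave 66 probe sets for 54 genes, out of 10855 probe sets and 8252 genes with 1 gene symbol per probe set, and 12488 probe sets in all. By role they comprised 22 ligand genes, 11 receptor genes, 7 Smad genes, 5 genes of extracellular antagonists, 4 of latent TGF-beta binding proteins and 5 other genes matched by symbol.

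The mutant sample was cerebral cortex of Pax6-/- embryos and its control was cerebral cortex of wild type embryos, both of the NMRI strain at embryonic day E14.5. Pax6 is a transcription factor of cortical radial glia, and the comparison was made to find its downstream targets. The data are 1 Affymetrix array of each genotype. RNA was isolated from 3 embryos of each, per the series' design, and neither pooling of that RNA nor the Pax6 allele is given in the sources used here. With 1 array per genotype there is no replicate error, no test between genotypes was possible, and every difference below is given by its size alone.

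Ligands of this superfamily are secreted as dimers and bring together type I and type II serine/threonine kinase receptors. BMP receptors phosphorylate Smad1 and Smad5, and TGF-beta and activin receptors phosphorylate Smad2 and Smad3. These Smads enter the nucleus with the shared partner Smad4, while Smad6 and Smad7 inhibit the pathway. In the embryonic forebrain, BMPs from the roof plate and cortical hem pattern the dorsal midline, and TGF-beta and BMP signals act on progenitors and on blood vessels. In bulk tissue, fewer cells of a type and less RNA per cell cannot be told apart.

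All values are MAS5 signals, which are linear and have no absolute unit, and log2 ratios of Pax6-/- over wild type. A pseudocount of 81.5 was added to each signal first, which draws ratios of dim probe sets towards 0, and ratios were centred on the array-wide median. A probe set counted as measured above the filter by its mean of log2(signal + 81.5) over both arrays. That mean had to reach the level of a signal of about 166. The median signal over all probe sets was 283.7 on the Pax6-/- array and 237.3 on the wild type array, and the 25th percentiles were 90.2 and 71.3. Pax6 itself had a signal of 447 on the Pax6-/- array and 1169 on the wild type array, a log2 ratio of −1.29, by a probe set whose position relative to the mutation is not known here. The cortical markers Tbr1, Neurod6, Sox2, Pax6, Tubb3 and Dcx were measured by 7 probe sets, which all passed the filter, and Emx1 and Emx2 were not analysed here. Of these 7 probe sets 6 were lower in the mutant, with a median log2 ratio of −0.51 and a summed signal of 30720 on the Pax6-/- array and 35910 on the wild type array. Tbr1 stood at −1.10, Neurod6 at −0.94 and Dcx at −0.51. Sox2, a progenitor gene, stood at 1.06 by a probe set for which the manufacturer relaxed its probe selection rules. The part of these shifts in the members' values was not tested. The technical spread is an SD for a single probe set, taken from the differences between probe sets of the same gene, which are themselves larger. It was 0.56 on the log2 scale over 896 genes, and 0.71 below a signal of 659, where most members lay.

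Above the filter, the pathway genes as a group had a median log2 ratio near that of the other probe sets. With no filter the median of all 66 member probe sets was 0.14, beside −0.01 for the others. Of the 66 probe sets, 32 passed the filter, for 28 genes. Of these 32, 17 had a higher signal in the mutant and 15 a lower one after centring, with a median log2 ratio of 0.02, beside −0.01 for the 6599 other probe sets above the filter, and the share with a ratio above 0 among those was 49.4%. Smad5, a transducer of BMP signals, was the only member above the filter at least 2-fold higher (3.12%, beside 5.32% of all other probe sets), and 0 members were at least 2-fold lower, beside 5.67% of the others. Above the filter the share past 2-fold was thus no larger among the members than over the rest of the array in this setting. This depended on the setting. Without a pseudocount 6 of 32 members were higher, beside 8.51% of the others, and 1 was lower, beside 7.93%. With the filter at the 60th percentile 1 of 18 was higher, beside 2.5%. After loess scaling the shares of the other probe sets were 3.99% higher and 6.73% lower, and Smad5 stood at 0.92, below 2-fold.

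A smaller threshold gave more members on the higher side. At 1.5-fold, 7 of 32 member probe sets were higher in the mutant (21.9%, beside 14.4% of the others) and 2 were lower (6.25%, beside 14.9%). The 7 belonged to Smad5, Inhbc, Tgfb2, Inhba, Smad7, Tgfbr3 and Acvrl1, and the 2 to Smad1 and Acvrl1. Of the 32, 8 lay at least 1 technical spread from 0 (beside 28.2% of the others) and 0 lay 2 technical spreads away.

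The filter bears on these counts. Of the 32 members, 26 had signals above 166 on both arrays. The 4 that passed only through the Pax6-/- signal were Smad5, Tgfb2, Tgfbr3 and Bmp5, which had to be higher in the mutant to be counted. Tgfbr1 and a Gdf3 probe set passed only through the wild type signal and had to be lower. The remaining 34 members lay below the filter, with median signals of 99.7 on the Pax6-/- array and 51.1 on the wild type array. Of these dim probe sets 25 were higher in the mutant, a share of 73.5% beside 60% of the 4190 others below the filter. Their median log2 ratio was 0.27, beside 0.11 for the other dim probe sets. At least 2-fold higher were 5 of them (14.7%, beside 9.62%), and 0 were 2-fold lower (beside 5.37%).

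**Figure D1:**
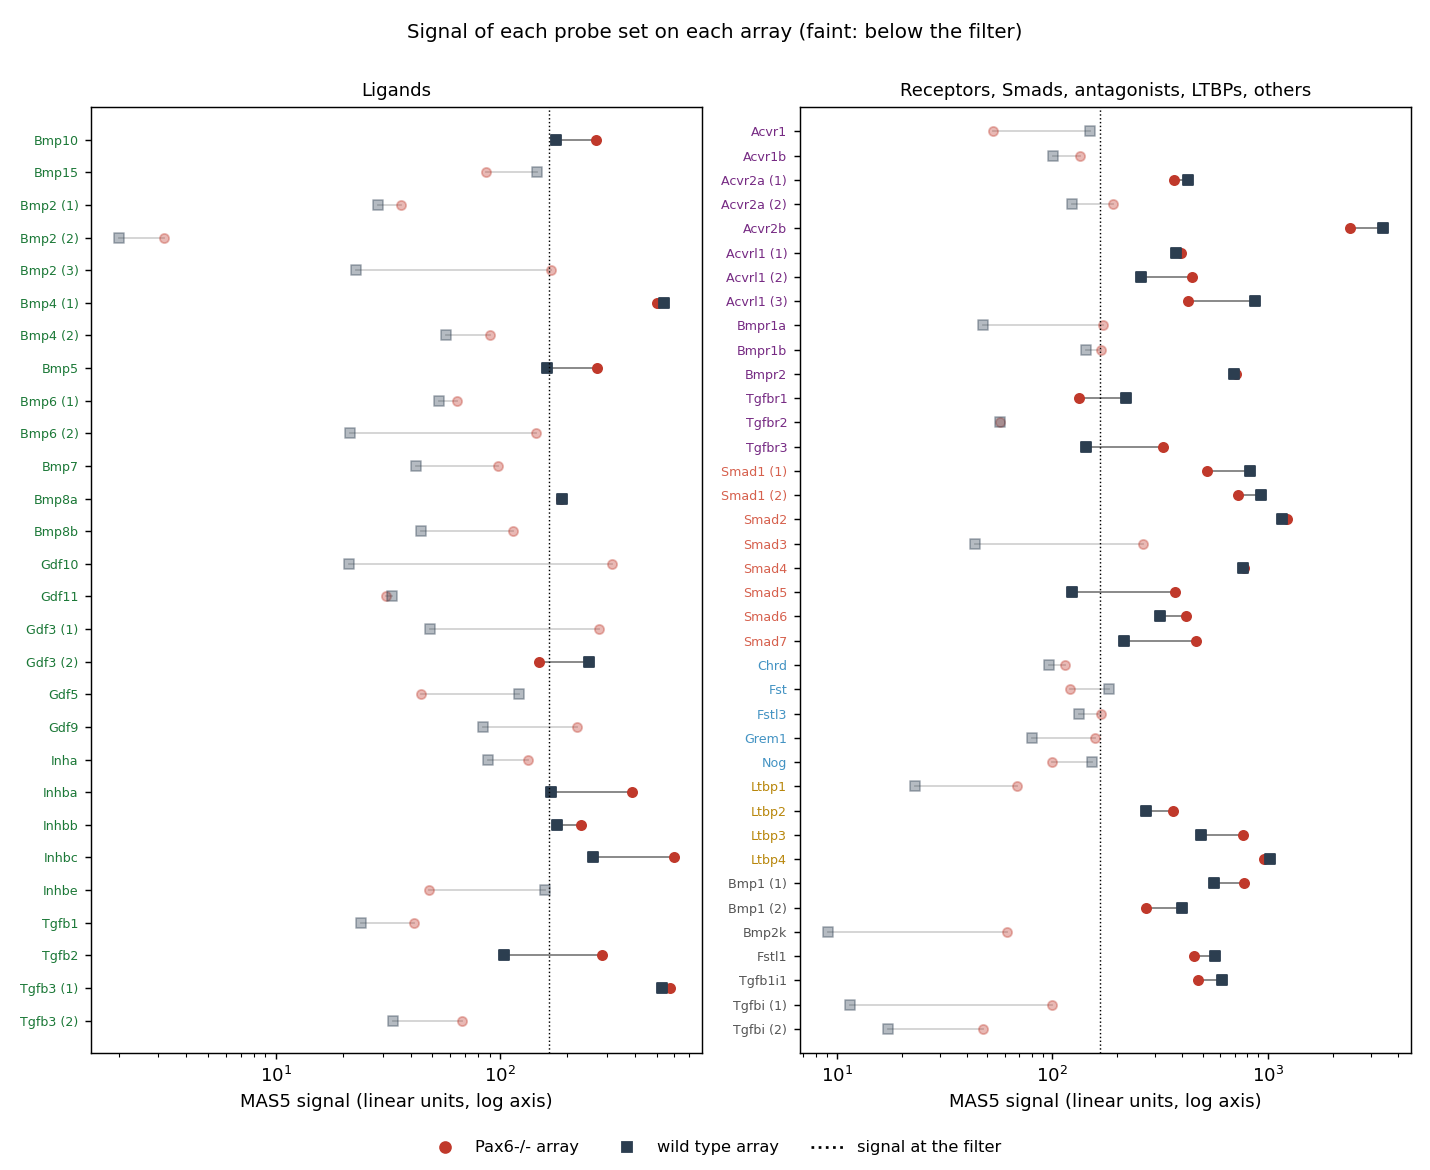
MAS5 signal of each of the 66 member probe sets on the Pax6-/- array (red circles) and the wild type array (dark squares), on a log axis, with 1 row per probe set and label colours by role. Faint symbols are probe sets below the filter, and the dotted line marks the signal of about 166. Members such as Smad2, Smad4 and Bmpr2 have nearly coinciding symbols on this axis, and the widest separations, such as that of Gdf10 with 316 and 21.3, are among dim probe sets.

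Among the ligands, the activin subunit genes Inhba and Inhbc and Tgfb2 had higher signals in the mutant, while Bmp4 and Tgfb3 were nearly equal on both arrays. Of 28 ligand probe sets, 10 passed the filter, 7 of them higher and 3 lower. Past 1.5-fold were 3 of the 10 on the higher side, beside 14.4% of all other probe sets, and 0 on the lower, beside 14.9%. Of these 3, Tgfb2 passed the filter only through its Pax6-/- signal. The ligands' median log2 ratio was 0.30, and 0.12 after loess scaling. Most ligand genes were dim: of 22 genes, 12 had no probe set above the filter.

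Inhba encodes the subunit that forms activin A, a ligand of the Smad2 and Smad3 branch. Its signal was 389 on the Pax6-/- array and 169.6 on the wild type array, a log2 ratio of 0.86. Inhbc, which encodes an activin subunit best known from liver, had 598 on the Pax6-/- array and 260.3 on the wild type array, a log2 ratio of 0.95. These were the most separated ligands with both signals above the filter, each under 2-fold on the scale used. Inhbb, the subunit of activin B, had 231 on the Pax6-/- array and 179.8 on the wild type array, a log2 ratio of 0.21. Inhbe, the neighbouring gene of Inhbc, went the other way at low signals, with 48.1 on the Pax6-/- array and 159 on the wild type array (log2 ratio −0.94, below the filter). Inha, whose product pairs with these subunits to form the antagonist inhibin, had 133 and 88.8 on the Pax6-/- and wild type arrays and lay below the filter. Of the activin subunit genes, Inhba, Inhbb and Inhbc, all above the filter, were thus higher, with Inhbb at 0.03 after loess scaling. Below the filter Inhbe was lower, and the inhibin gene Inha was higher.

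The TGF-beta isoform genes differed from each other. Tgfb2, which encodes an isoform made in developing neural tissue, had a signal of 286 on the Pax6-/- array and 104 on the wild type array, a log2 ratio of 0.94. Its wild type signal was near the pseudocount, and the ratio ran from 0.55 to 1.41 over 5 alternative scalings and pseudocounts. Tgfb3 had 574 on the Pax6-/- array and 527 on the wild type array (log2 ratio 0.06), and its second, dim probe set had 67.7 and 33.2. Tgfb1, the isoform of blood cells and vessels, was dim on both arrays, with 41.6 on the Pax6-/- array and 24.1 on the wild type array.

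Bmp4, a BMP of the dorsal midline, had a signal of 503 on the Pax6-/- array and 539 on the wild type array, a log2 ratio of −0.13. Bmp5, a relative of Bmp7, had 270.1 on the Pax6-/- array and 162 on the wild type array (0.49). Bmp10, best known from the heart, had 269 on the Pax6-/- array and 178 on the wild type array (0.39). Bmp8a was the member above the filter with the most similar signals among the ligands, at 187 on the Pax6-/- array and 189 on the wild type array, while its close copy Bmp8b was dim at 114 and 44.4. The sequences of these copies are alike, so their probe sets may share signal. Gdf3, a ligand gene of pluripotent cells, gave opposite values: 149 on the Pax6-/- array and 251 on the wild type array for its probe set above the filter (−0.57), and 275.5 and 48.7 for the dim one (1.41).

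The largest separation of the whole gene set was that of a dim ligand probe set, for Gdf10. Gdf10, a BMP3-related ligand gene, had 316 on the Pax6-/- array and 21.3 on the wild type array, a log2 ratio of 1.91 that ran from 1.0 to 3.84 over the alternatives. Its mean on the log2 scale was below the filter and it had no second probe set. One Bmp6 probe set had 145 and 21.4 on the Pax6-/- and wild type arrays, while the other had 64.7 and 53.4. One of 3 Bmp2 probe sets had 169 and 22.8, while the others had 36.2 and 28.7, and 3.16 and 2.0, in the same order of arrays. Bmp7, which with Bmp4 and Bmp6 marks midline tissue and meninges, had 98.6 on the Pax6-/- array and 42.4 on the wild type array. Gdf9 had 221 on the Pax6-/- array and 83.8 on the wild type array, and Bmp15, which acts with Gdf9 in the oocyte, had 87.0 and 146. Gdf5, a ligand gene of joints, had 44.4 on the Pax6-/- array and 121 on the wild type array. Gdf11, which limits neuron production in the olfactory epithelium, had 31.2 on the Pax6-/- array and 32.9 on the wild type array.

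**Figure D2:**
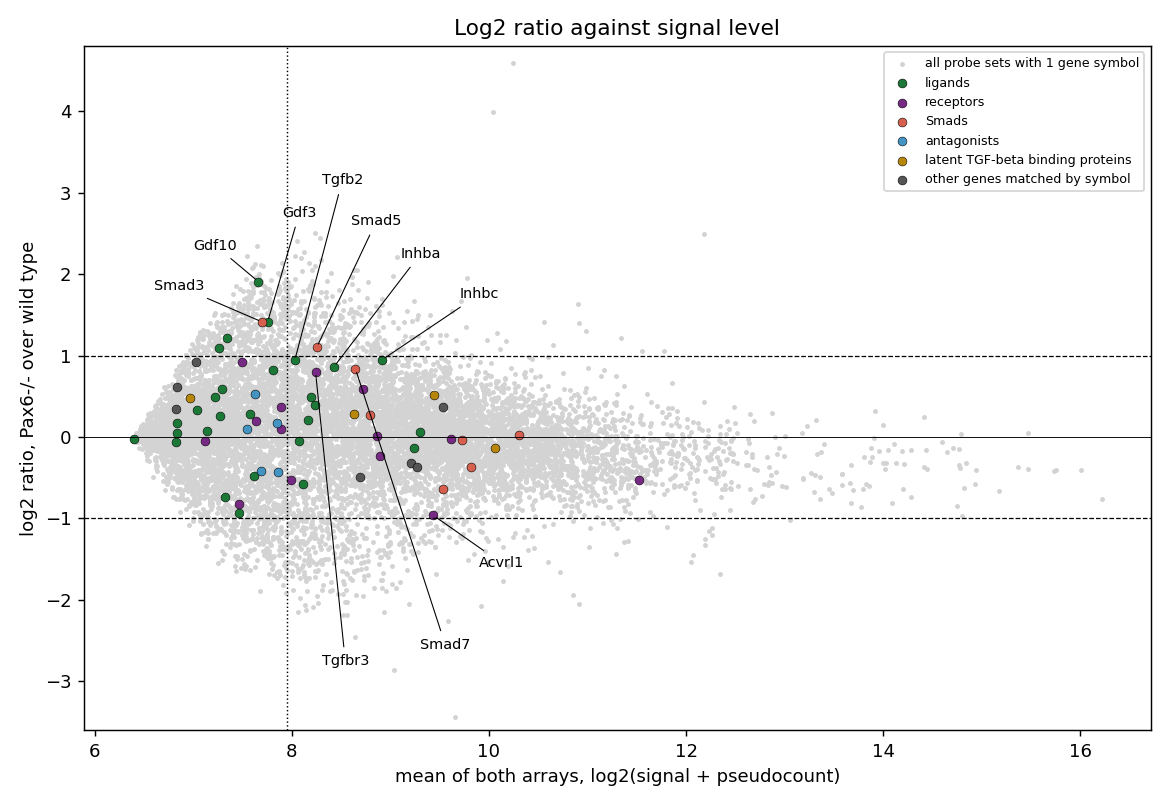
Log2 ratio of Pax6-/- over wild type against the mean log2(signal + pseudocount) of both arrays, for all 10855 probe sets with 1 gene symbol (grey) and for the 66 members (coloured by role, named where the ratio is above 1.3, or beyond 0.8 in size and above the filter). Dashed lines mark 2-fold and the dotted line marks the filter. Member points lie within the grey cloud, and the named ones are at low and middle signals.

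Receptor genes showed no common direction. Of 14 receptor probe sets 8 passed the filter, 3 higher and 5 lower, with a median log2 ratio of −0.13. Past 1.5-fold were 2 of the 8 on the higher side, beside 14.4% of all other probe sets, and 1 on the lower, beside 14.9%. The 2 higher ones were an Acvrl1 probe set and Tgfbr3, which passed the filter only through its Pax6-/- signal. The 1 lower was another Acvrl1 probe set. Acvr2b, an activin type II receptor, had 2399 on the Pax6-/- array and 3392 on the wild type array, a log2 ratio of −0.53 beside a technical spread of 0.45 at that signal. Bmpr2, the BMP type II receptor, was nearly equal, with 707 on the Pax6-/- array and 694 on the wild type array (−0.02). Acvr2a had 364 and 425 by its probe set above the filter (−0.23), and 191 and 123 by the other (0.37), on the Pax6-/- and wild type arrays. Tgfbr2, the TGF-beta type II receptor, had 57.0 on both arrays.

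Of the type I receptors, Tgfbr1 had 133 on the Pax6-/- array and 218 on the wild type array, a log2 ratio of −0.53. Bmpr1a, a BMP receptor of cortical progenitors, had 171 on the Pax6-/- array and 47.7 on the wild type array and lay below the filter, at a log2 ratio of 0.92. Bmpr1b had 168 and 143.5, and Acvr1b had 135 and 101, both in that order of arrays and below the filter. Acvr1, which binds BMPs, had 53.1 on the Pax6-/- array and 149 on the wild type array, also below it, at −0.82. Tgfbr3 (betaglycan), a co-receptor that presents TGF-beta2 and inhibin, had 324 on the Pax6-/- array and 144 on the wild type array, a log2 ratio of 0.80. Tgfbr3 and Tgfb2 were both higher in the mutant, with ratios of 0.80 and 0.94. Both passed the filter only through the Pax6-/- signal and had to be higher to be counted. Their shared direction was therefore set by the filter.

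Acvrl1, an endothelial type I receptor, was measured by 3 probe sets above the filter, and they disagreed. The first had 393 on the Pax6-/- array and 375 on the wild type array (log2 ratio 0.01, and −0.11 after loess scaling). The second had 443 on the Pax6-/- array and 256 on the wild type array (0.59). The third, for which the manufacturer relaxed its probe selection rules, had 422 on the Pax6-/- array and 870.4 on the wild type array (−0.96). No direction can be given for the gene.

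Smad genes held the only 2-fold member above the filter and some of the most nearly equal ones. Of 8 Smad probe sets 7 passed the filter, 4 higher and 3 lower, with a median log2 ratio of 0.03. Smad5 had 372 on the Pax6-/- array and 123 on the wild type array, a 2.14-fold difference (log2 ratio 1.10, technical spread 0.71). Its ratio ran from 0.69 to 1.54 over the alternatives, and was below 2-fold with quantile scaling, loess scaling and the larger pseudocount. Smad1, the other BMP transducer measured here, had 520.2 and 722 on the Pax6-/- array and 825 and 926 on the wild type array by its 2 probe sets. Both Smad1 probe sets were thus lower, at log2 ratios of −0.64 and −0.37, and neither reached its technical spread of 0.71 and 0.50.

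In the TGF-beta and activin branch, Smad2 had 1217 on the Pax6-/- array and 1154 on the wild type array (log2 ratio 0.03). Smad3 had 262 on the Pax6-/- array and 43.6 on the wild type array, a log2 ratio of 1.41 that ran from 0.75 to 2.54, with its mean below the filter. Smad4, the shared partner, had 769 on the Pax6-/- array and 766 on the wild type array (−0.04, and 0.01 without centring). Of the inhibitory Smads, which BMP and TGF-beta signals themselves induce, Smad7 had 461.5 on the Pax6-/- array and 213.5 on the wild type array (0.83). Smad6 had 414.5 on the Pax6-/- array and 316.5 on the wild type array (0.27). Smad2 and Smad4 were thus nearly equal on both arrays, while Smad3, Smad5 and Smad7, with wild type signals of 43.6, 123 and 213.5, had the largest positive ratios of the group.

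**Figure D3:**
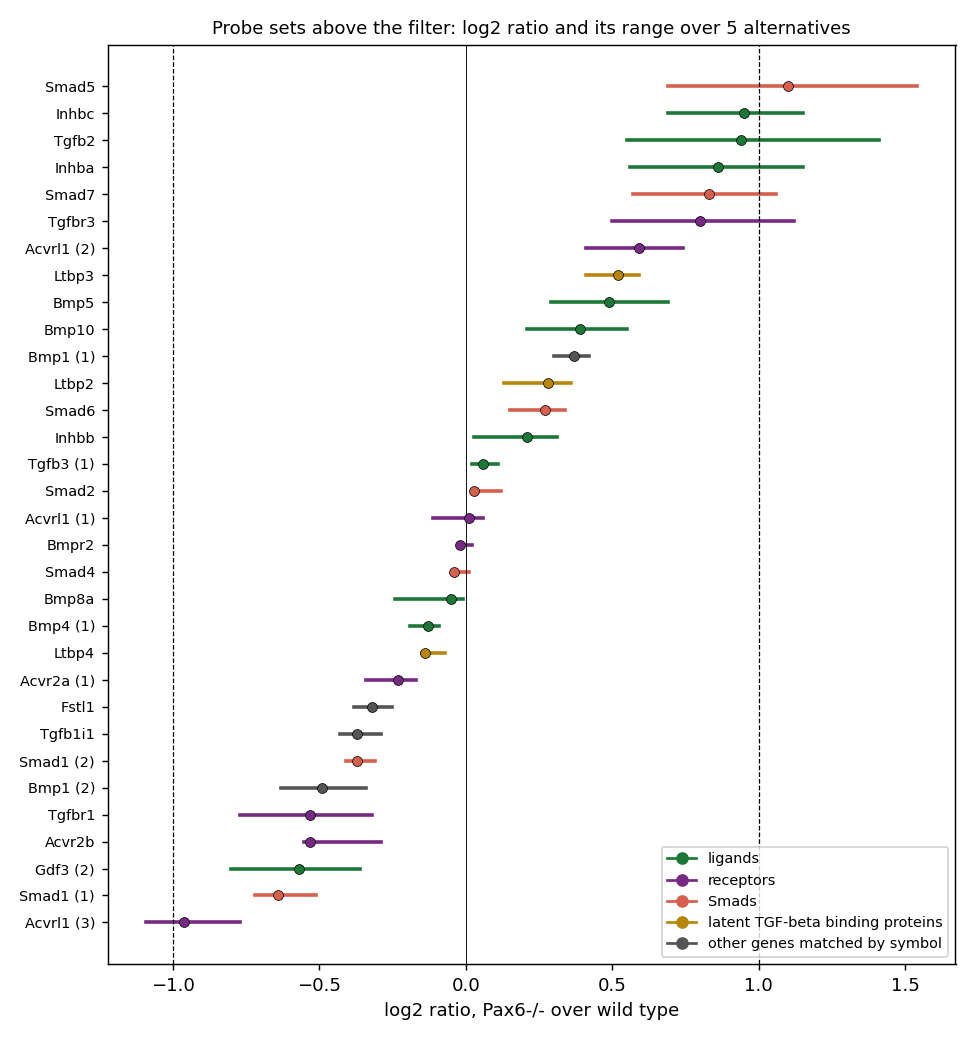
Log2 ratio of Pax6-/- over wild type for the 32 member probe sets above the filter (points, coloured by role) and its range over 5 alternatives of scaling and pseudocount (bars). Dashed lines mark 2-fold. Smad5, the highest point at 1.10, has a range of 0.69 to 1.54 that crosses the 2-fold line, and the lowest point, an Acvrl1 probe set at −0.96, crosses it on the other side.

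Promoters of 4 Smad genes are shown because these genes transduce the signal or, for Smad6, inhibit it. They had unlike ratios: Smad3 and Smad5 high, Smad6 small and Smad1 negative. Sequences are from RefSeq on GRCm38.p6, on the strand of the gene, 250 bases before to 20 after the start site, and 39 of the 54 member genes had such an entry. The windows are chr8:79399409-79399678 (minus strand), chr9:63757975-63758244 (minus), chr13:56702760-56703029 (plus, the most upstream of 3 starts) and chr9:64022040-64022309 (minus). Capitals mark the only match to the motifs searched.
Smad1: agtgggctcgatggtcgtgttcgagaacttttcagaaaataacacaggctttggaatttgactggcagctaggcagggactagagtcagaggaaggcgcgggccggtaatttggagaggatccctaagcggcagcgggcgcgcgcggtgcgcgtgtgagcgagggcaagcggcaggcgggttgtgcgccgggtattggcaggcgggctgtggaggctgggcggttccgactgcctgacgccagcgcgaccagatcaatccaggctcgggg
Smad3: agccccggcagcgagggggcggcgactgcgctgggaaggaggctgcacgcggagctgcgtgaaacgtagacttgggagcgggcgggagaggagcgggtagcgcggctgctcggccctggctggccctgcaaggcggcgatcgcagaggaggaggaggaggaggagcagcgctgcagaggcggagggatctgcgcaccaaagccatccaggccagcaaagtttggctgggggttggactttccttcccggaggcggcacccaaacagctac
Smad5: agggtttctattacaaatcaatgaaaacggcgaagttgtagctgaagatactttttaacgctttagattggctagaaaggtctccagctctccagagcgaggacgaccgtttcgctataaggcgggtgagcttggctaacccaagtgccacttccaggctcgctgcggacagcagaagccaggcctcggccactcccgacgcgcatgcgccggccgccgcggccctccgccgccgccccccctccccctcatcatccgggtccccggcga
Smad6: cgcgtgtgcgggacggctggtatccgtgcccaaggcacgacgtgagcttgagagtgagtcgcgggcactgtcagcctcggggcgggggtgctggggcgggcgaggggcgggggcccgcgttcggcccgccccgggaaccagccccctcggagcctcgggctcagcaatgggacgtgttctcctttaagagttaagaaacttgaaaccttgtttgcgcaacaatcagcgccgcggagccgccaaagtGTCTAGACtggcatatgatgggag
Both strands were searched for the palindromic Smad-binding element GTCTAGAC and for the GC-rich BMP-response motif GGCGCC, which share no overlap here. The Smad6 window held GTCTAGAC, with its first base at position −4 from the start site, and the other windows held neither motif. Over all starts in the table, GTCTAGAC occurred for 0.218% of 27025 genes and for 1 of 39 member genes. GGCGCC occurred for 11.8% of genes and for 9 of 39 member genes (23.1%). A match describes letters only, and no binding was measured.

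The antagonists were all dim, so the arrays say little about them. All 5 probe sets lay below the filter. Noggin (Nog), which binds BMPs, had 99.7 on the Pax6-/- array and 152 on the wild type array, and follistatin (Fst), which binds activins, had 121 and 183. Chordin (Chrd), a further BMP binder, had 115 on the Pax6-/- array and 96.8 on the wild type array, and its ratio of 0.09 turned to −0.05 after loess scaling. Grem1, a BMP antagonist of mesenchyme, had 158 on the Pax6-/- array and 80.2 on the wild type array. Fstl3, related to follistatin, had 168 on the Pax6-/- array and 133 on the wild type array. Log2 ratios ran from −0.43 for Fst to 0.52 for Grem1, and no member of this group was 1.5-fold apart on this scale. Without the pseudocount the signal ratio was 1.97 for Grem1, 0.655 for Nog and 0.662 for Fst.

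Some latent TGF-beta binding proteins tether inactive TGF-beta to the matrix. Ltbp3 had 763.5 on the Pax6-/- array and 489.9 on the wild type array, a log2 ratio of 0.52. Ltbp2 had 361 on the Pax6-/- array and 272 on the wild type array (0.28). Ltbp4 had 954.5 on the Pax6-/- array and 1024 on the wild type array (−0.14), and Ltbp1 had 68.2 and 23.0 and was below the filter. None of these 4 was 1.5-fold apart on the scale with the pseudocount, while the signals of Ltbp1 and Ltbp3 alone had ratios of 2.97 and 1.56.

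The 5 other genes matched by symbol had 4 probe sets above the filter, 1 higher and 3 lower, with a median log2 ratio of −0.35. Bmp1 encodes a metalloprotease that cleaves procollagen and the antagonist chordin. Its 2 probe sets disagreed, with 773 on the Pax6-/- array and 559.8 on the wild type array (0.37), and with 272 and 399 (−0.49). Fstl1, a secreted glycoprotein gene, had 455 on the Pax6-/- array and 568 on the wild type array (−0.32), and Tgfb1i1, which encodes a focal adhesion protein, had 470.1 and 610.5 (−0.37). Bmp2k, a kinase gene, and both probe sets of the matrix gene Tgfbi were dim, with 61.7, 47.7 and 99.8 on the Pax6-/- array and 9.09, 17.3 and 11.5 on the wild type array in that order of probe sets.

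Repeat measurements of a gene on the same arrays limited what could be said of direction. In all, 10 member genes had several probe sets, 22 together. The signs were the same within 4 genes (Smad1, Tgfb3, Bmp6 and Tgfbi) and opposite within 6 (Acvrl1, Acvr2a, Bmp1, Bmp2, Bmp4 and Gdf3). The distance between the probe sets of a gene ran from 0.26 for Smad1 to 1.98 for Gdf3. Relaxed probe selection rules, as for the third Acvrl1 probe set, also applied to the dim Gdf3 and Bmp4 probe sets. They applied as well to the highest and lowest Bmp2 probe sets and to the higher of Tgfbi. Smad1 was the only gene with more than 1 probe set above the filter whose probe sets had the same sign. The name of 1 of these Smad1 probe sets carries a suffix for shared probes, so they may not be independent measurements. The other 44 genes, among them Smad5, Smad7, Inhba, Inhbc and Tgfb2, rested on 1 probe set each.

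**Figure D4:**
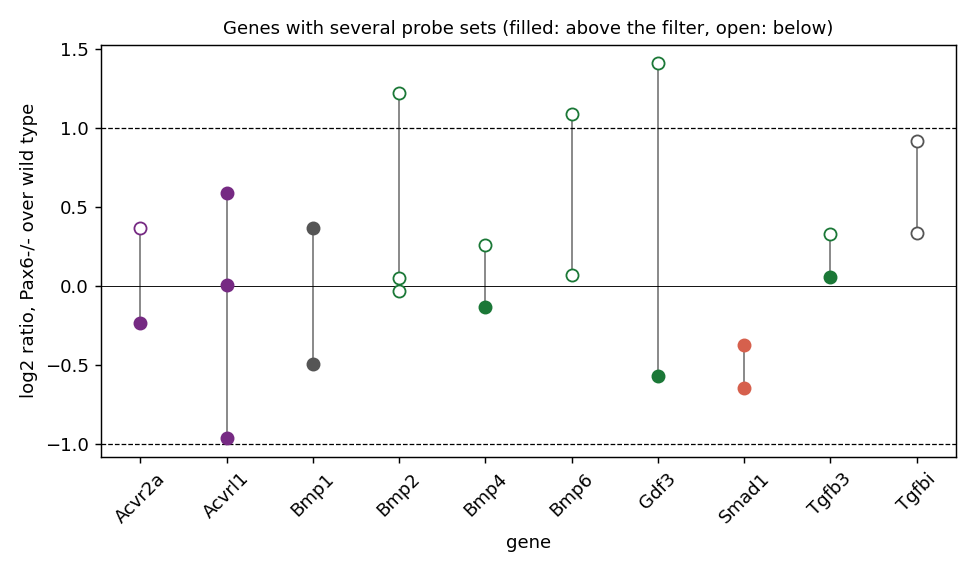
Log2 ratio of Pax6-/- over wild type for each probe set of the 10 member genes with several probe sets, joined by a line within a gene. Filled points are above the filter and open points below it, colours give the role, and dashed lines mark 2-fold. The points of 6 genes lie on both sides of 0, with the widest spans for Gdf3 (1.98) and Acvrl1 (1.55).

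Among the members, 4 pairs were direct neighbours in the mouse gene table, with 0 protein-coding genes between them, namely Inhbe with Inhbc, Smad3 with Smad6, Acvrl1 with Acvr1b and Tgfbi with Smad5. Neighbours did not always share a direction: Inhbc stood at 0.95 and Inhbe at −0.94. Smad3 and Smad6 were both higher in the mutant, at 1.41 and 0.27, as were Smad5 and both probe sets of Tgfbi, at 1.10, 0.34 and 0.92. Of these, Smad3, Inhbe and Tgfbi were below the filter.

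Genes that BMP and TGF-beta signals are known to induce had no common direction. Of 17 listed targets 14 were measured, by 16 probe sets, and 8 of these passed the filter, with 3 higher, 5 lower and a median log2 ratio of −0.25. Of these 8, 2 were lower and 1 higher by 2-fold or more, beside 5.67% and 5.32% of the probe sets outside the pathway members. Id4, an inhibitor of proneural factors, had 884 on the Pax6-/- array and 2881 on the wild type array (−1.66), and Junb, an immediate early gene, had 165 and 449 (−1.15) by a probe set that passed the filter only through its wild type signal. The manufacturer relaxed its probe selection rules for that Junb probe set as well. The other Junb probe set, below the filter, had 74.5 on the Pax6-/- array and 48.2 on the wild type array (0.22). Cdkn1a, a cell cycle inhibitor gene, had 433 on the Pax6-/- array and 135 on the wild type array by a probe set that passed only through its Pax6-/- signal (1.20), and 366 and 452 by the other (−0.30). Of the other Id genes, Id2 was lower as well, at −0.46. Id3 stood at 0.28, with 223 on the Pax6-/- array and 162 on the wild type array. It passed the filter only through its Pax6-/- signal and had to be higher to be counted. Id1 was below the filter and lower, with 43.9 on the Pax6-/- array and 98.8 on the wild type array (−0.57). Id genes also respond to other signals.

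Of 43 further modulators and transducers 25 were measured, by 32 probe sets. Of these, 20 passed the filter, 9 higher and 11 lower, with a median log2 ratio of −0.05. Past 2-fold higher were Mstn (myostatin), with 545.5 on the Pax6-/- array and 155 on the wild type array (1.36), and Cited1, a transcriptional co-regulator gene, with 567 and 225 (1.03). Zfyve16, an endosomal Smad-binding protein gene, had 489.6 on the Pax6-/- array and 37.5 on the wild type array (2.22). Mstn and Zfyve16 passed the filter only through the Pax6-/- signal and so had to be higher to be counted, and the Itgav probe set at −1.51 passed only through the wild type signal and had to be lower. The 3 higher and 1 lower of 20 stand beside 5.32% and 5.67% of the probe sets outside the pathway members. Itgav, a subunit of the integrins that release latent TGF-beta, had 85.9 on the Pax6-/- array and 382 on the wild type array by one probe set (−1.51) and 776 and 836 by another (−0.14). Ski, a co-repressor of Smads, was nearly equal, at 1417 and 1401 in the same order.

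Markers of cells outside the cortical epithelium, which express several of these genes, were measured on the same arrays. Meningeal and mesenchymal markers, 12 of 12 measured by 20 probe sets, had a summed signal of 8885 on the Pax6-/- array and 7266 on the wild type array, with 7 of 9 probe sets above the filter higher. Of the 11 dim probe sets in this list 6 were higher and 5 lower. The list's median log2 ratio was 0.35 above the filter and 0.14 with no filter. Endothelial and pericyte markers, 10 of 10 measured, summed to 3014 on the Pax6-/- array and 2109 on the wild type array, with 2 of 4 above the filter higher and 8 of 9 dim ones higher. Both lists stand beside Acvrl1, Tgfbr3, Tgfb2, Bmp5, Bmp7 and Ltbp3. Microglial markers, 8 of 8 measured, summed to 4654 on the Pax6-/- array and 3212 on the wild type array, with 6 of 8 above the filter higher. Choroid plexus and hem markers, 7 of 9 measured, summed to 2122 on the Pax6-/- array and 1988 on the wild type array, and stand beside Bmp4 and Bmp6. Of their 5 probe sets above the filter 3 were lower, with a median log2 ratio of −0.16. The higher sum rested on 1 Aqp1 probe set, with 554.6 on the Pax6-/- array and 128.4 on the wild type array: without it, an alternative chosen after seeing the data, the other 7 summed to 1567 on the Pax6-/- array and 1859 on the wild type array. Leaving out the most separated probe set turned the direction of no other marker list. Erythroid markers, 6 of 7 measured, summed to 18680 on the Pax6-/- array and 21130 on the wild type array. Probe sets outside the pathway members summed to 7220000 on the Pax6-/- array and 7745000 on the wild type array. Higher in the mutant were 49.4% of those above the filter and 60% of those below it. Of the markers, a probe set each of Foxc2, Col1a1, Fcgr3, Aqp1 and Slc4a1 passed only through the Pax6-/- signal. These had to be higher, while a Laptm5 and another Aqp1 probe set passed only through the wild type signal and had to be lower. No marker was listed at 0, since the lowest signal in the table was 1.0. The part of these cells in the members' values was not tested.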

How the data were processed

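Biotin-labelled RNA (6 µg per sample, per the labels' protocols) from 1 Pax6-/- and 1 wild type sample was measured on arrays. The authors deposited 1 signal intensity per probe set and array on a linear scale. The submitters' processing notes name MAS5 without a version. The scaling target and detection calls were not used here. The 2% trimmed mean was 500.2 on both arrays. Genes were named from GEO's platform annotation, and each of the 54 member genes was found by its gene ID in a RefSeq table of GRCm38.p6.

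The pseudocount is the 25th percentile of the signals of both arrays together. Ratios of log2(signal + 81.5) were centred by removing a shift of 0.05, the median above the filter, which kept means at or above the 40th percentile. Technical spread is the SD of the difference between the 2 brightest probe sets of a gene, over the square root of 2. Variation between embryos is not part of it, and the number of arrays limits precision. Every member is named. Of the other pathway lists, genes past 2-fold and the 4 largest differences are named, and Id1, Id3 and Ski were chosen after their values were seen. The members and lists were chosen with earlier results of these data known. One listed marker is not reported here. The 4 Smad promoters and the motifs were chosen after the ratios were seen. The plan named all probe sets with 1 symbol, members included, as the background; after the values were seen it was changed to the other probe sets, with the members left out, and no share moved by more than 0.11 percentage points (2-fold higher above the filter, 5.31% with the members). Steps were tested on simulated arrays. Loess scaling used statsmodels 0.14.6 (fraction 0.4, 3 iterations), tables used pandas 2.3.3 and numpy 2.4.6 under Python 3.11.15, and plots used matplotlib 3.10.9.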

Additional observations from a re-analysis of the deposited data

How the results depend on the processing

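Alternatives changed the scaling, pseudocount, filter, choice of probe sets or threshold. Smad5 alone was at least 2-fold higher in the main setting. The count was 0 with quantile scaling, loess scaling, the 50th-percentile pseudocount and the 3-fold threshold. In that order, 4.33%, 3.99%, 1.7% and 1.08% of the other probe sets were higher. Without a pseudocount (values floored at the 1st percentile) 6 of 32 were higher and 1 lower, beside 8.51% and 7.93% of the others. With no filter 6 of 66 were higher and 1 lower, beside 6.31% and 6.29%. At 1.5-fold 7 of 32 were higher and 2 lower, beside 14.4% and 14.9%. The count was 1 higher and 0 lower, again Smad5, without centring and with the brightest probe set, the mean of probe sets or only probe sets whose names carry no letter suffix. In these settings between 4.93% and 5.97% of the others were higher, and between 5.09% and 5.8% were lower. With the 60th-percentile filter and with a filter on the wild type array alone, Smad5 was filtered out and the 1 member higher was Inhbc, at the 2-fold line after recentring with the first of these filters and at 1.04 with the other. This was 1 of 18 with the first filter, beside 2.5% of the others higher and 2.98% lower. With the other filter it was 1 of 31, beside 2.91% higher and 7.09% lower. The median of the members was 0.14 with no filter, and between −0.03 and 0.06 under the other alternatives. Of 330 recomputed member ratios, 315 stayed within 1 technical spread of the reported value. A change of scaling or of centring turned the sign of 8 members, all close to 0, of which 3 were above the filter (an Acvrl1 probe set, Bmpr2 and Smad4). No paired analysis was possible because each genotype had 1 array, and for the same reason no sample could be left out. Low signal limits most members: 34 of 66 lay below the filter.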
